A study of Mus musculus with 16 samples.

Results

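The Iroquois genes of the mouse were described here as 6 genes in 2 clusters, Irx1, Irx2 and Irx4 on chromosome 13 and Irx3, Irx5 and Irx6 on chromosome 8, out of 21755 protein-coding genes annotated on chromosomes 1 to 19 and X. They were chosen as the complete gene family, and the chromatin loops around them were found by position: loops with an anchor within 1 Mb of a cluster, and among these the loops that touched, joined or spanned a start site. The data came from Micro-C, a chromosome conformation assay that cuts chromatin with micrococcal nuclease, on dissected cochlea of C57Bl/6 mice. The samples are labelled P0, while the design text gives P0/1, and no treatment or mutation is named. The 4 Micro-C replicates were merged before loops were called, and the sources differ on whether replicate 4 was biological or technical. Hence each loop is 1 call with no value per replicate and no error between animals, and whole cochlea mixes sensory, supporting, neural and mesenchymal cells. The list held 6798 loops, each a pair of 10 kb bins of mm10 with an FDR, the q-value given by the loop caller, below 0.1.

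Iroquois genes encode homeodomain transcription factors of the TALE class, named for an extended loop of amino acids inside the homeodomain. The clusters are paralogous, and in the embryo Irx1 and Irx2, like Irx3 and Irx5, have largely overlapping expression domains, while Irx4 and Irx6 differ more from their neighbours. In the inner ear, Irx3 and Irx5 take part in the patterning of sensory domains.

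The chromosome 13 cluster ran over 1311 kb, from 71957921 to 73269608, and the chromosome 8 cluster over 882 kb, from 91798525 to 92680956. Irx1, a gene of nephron and lung development, lay at 71957921 to 71963723 on the minus strand. Its paralogue by position, Irx3, which acts in the cardiac conduction system and in energy balance, lay at 91798525 to 91802067, also on the minus strand. Irx2 was at 72628820 to 72634198 and Irx5, which shapes cardiac repolarisation and retinal bipolar cells, at 92357625 to 92376286, both on the plus strand. Irx4, a regulator of ventricular gene expression in the heart, was at 73260479 to 73269608, and Irx6, a gene of retinal bipolar cells, at 92674288 to 92680956, again both on the plus strand. The order and strands of the genes were therefore the same in both clusters. No protein-coding gene lay between neighbouring Irx genes. The start sites of neighbours were 665 kb apart for Irx1 and Irx2, 632 kb for Irx2 and Irx4, 556 kb for Irx3 and Irx5, and 317 kb for Irx5 and Irx6. Over all protein-coding genes, the median distance to the nearest other start site was 21.9 kb.

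Loops touched the start sites of 4 of the 6 genes, where touching means that an anchor bin lay within 20 kb of the 5′ end of the gene. The same held for 27.2% of all protein-coding genes. The touched genes were Irx1 with 4 loops, Irx2 with 2, Irx3 with 3 and Irx5 with 3, whereas Irx4 and Irx6 were touched by 0. These were 5 different loops in each cluster, since 1 loop in each touched 2 Irx genes and was counted for both. The genes of a cluster are therefore not independent of each other in these counts. Of the 6 genes, 4 had at least 2 loops, compared with 7.71% of protein-coding genes, and 3 of the 6 had at least 3 loops, compared with 1.94%. Both of these counts were added after the data were seen. At an FDR below 0.01, 2 of the 6 had at least 2 loops (2.22% of protein-coding genes) and 0 had at least 3 (0.368%). With anchors within 10 kb, 1 of the 6 had at least 3 loops (0.892%). The touched genes had no other protein-coding start site within 300 kb. Of the 619 genes in the annotation with that much space around them, 32.3% were touched. Irx4 and Irx6 had closer neighbours, with other start sites at 68 kb and 153 kb. The nearest anchor to the Irx4 start site was 100 kb away and that to the Irx6 start site 45.7 kb away.

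**Figure D1:**
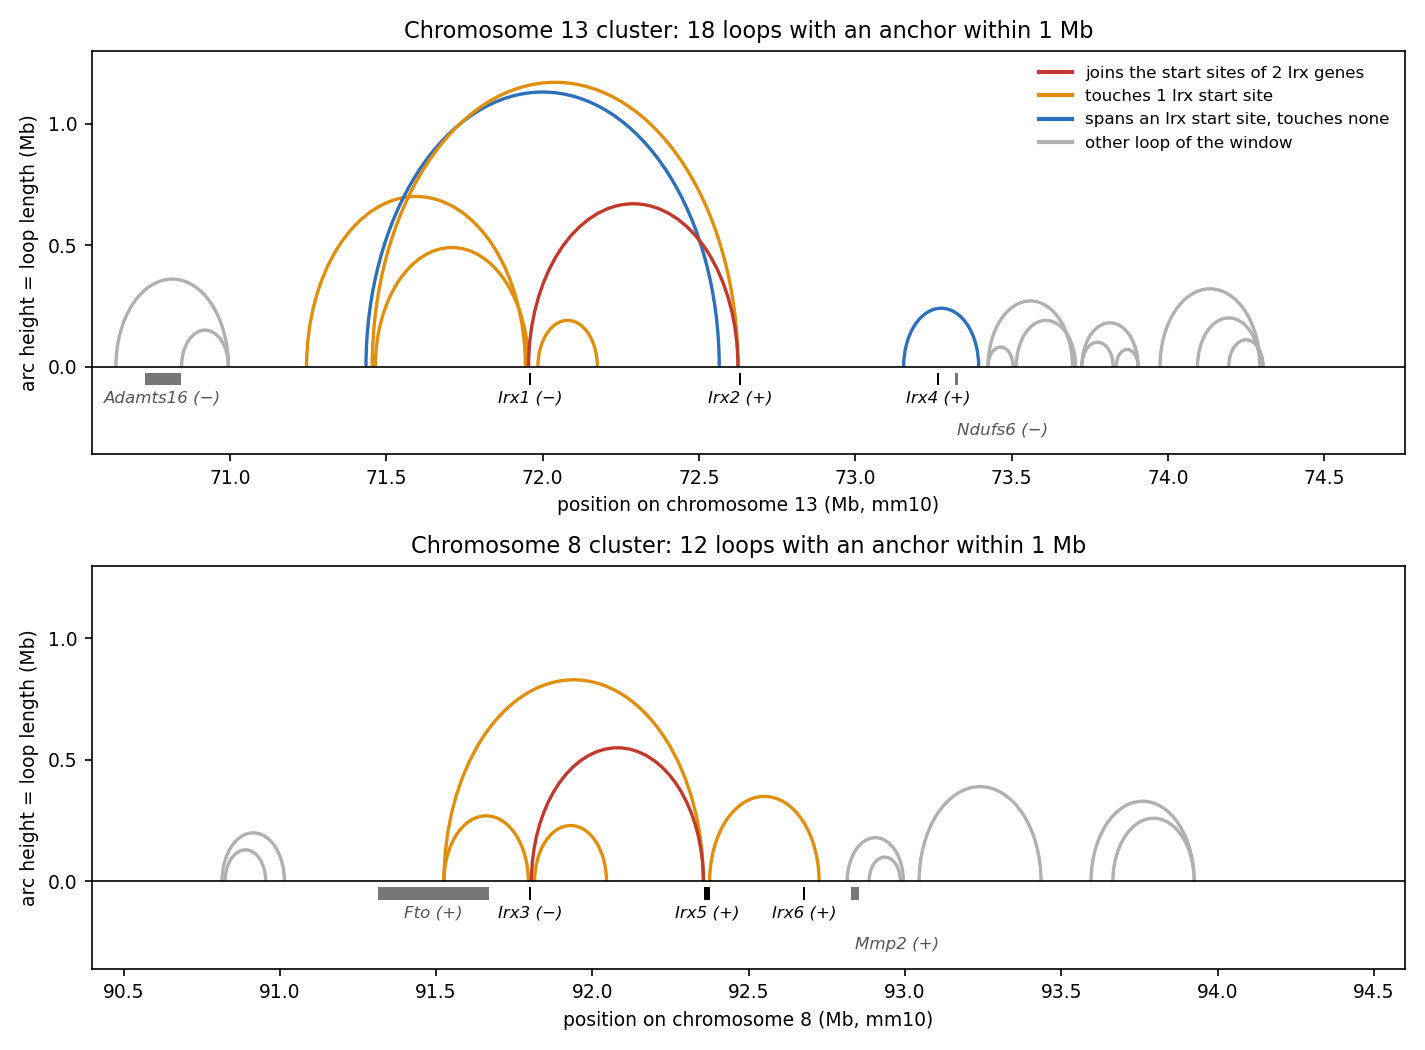
Loops with an anchor within 1 Mb of each Iroquois cluster, drawn as arcs between bin centres over the position in Mb of mm10, with arc height equal to loop length in Mb. Black boxes are Irx genes with their strand and grey boxes the nearest protein-coding gene on each side. In both clusters 1 loop joins a pair of Irx genes (Irx1 and Irx2, Irx3 and Irx5), and Irx4 and Irx6 lie under a loop that does not touch them.

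In each cluster 1 loop joined a pair of Irx genes, and the pair was the equivalent one. With the start site required to lie inside the anchor bin, the count was 0 on chromosome 13 and 1 on chromosome 8. The loop between Irx1 and Irx2 linked chr13:71950001-71960000 to chr13:72620001-72630000 over 670 kb, with an FDR of 0.000201. The loop between Irx3 and Irx5 linked chr8:91800001-91810000 to chr8:92350001-92360000 over 550 kb, with an FDR of 0.00151. Of the list, 11.2% of loops had a lower FDR than the first and 25.3% a lower FDR than the second. Among loops within 20% of the same length these shares were 5.35% of 804 loops and 21.9% of 1011 loops. Thus 2 of the 4 neighbouring Irx pairs were joined. Across the genome, 58 of 1418 neighbouring protein-coding pairs with start sites 300 kb to 1 Mb apart were joined by a loop (4.09%), and 19.4% of all loops joined start sites of different protein-coding genes.

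The anchors of these loops were described by what the annotation places in them, with exons numbered in the longest protein-coding transcript. The left anchor of the Irx1 loop held exons 2 to 4 of Irx1 and part of the noncoding RNA gene Gm40999, and ended 3.72 kb from the Irx1 start site, so this loop touched Irx1 and also arched over the start of the gene. The right anchor held the Irx2 start site and exon 1, together with the noncoding RNA gene Gm20554. On chromosome 8 both anchors held a start site. The left one contained exons 1 to 2 of Irx3 and part of the antisense RNA gene Irx3os, and the right one exons 1 to 2 of Irx5 and part of the noncoding RNA gene Crnde. At 10 kb the list cannot tell a contact of an Irx promoter from one of the noncoding gene in the same bin.

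Beyond the joined pair, each cluster had an anchor to the left of its first gene that was linked to both genes of the pair. On chromosome 13 this anchor lay at chr13:71450001-71470000, in intergenic sequence and in adjacent bins for the 2 loops. One loop ran from it to Irx1 over 490 kb, with an FDR of 0.000125, and the other to Irx2 over 1170 kb, with an FDR of 0.0314. On chromosome 8 both loops left from the single bin chr8:91520001-91530000. This bin held exon 8 and flanking intron sequence of Fto, the gene of an RNA demethylase, and overlapped Gm45290, an annotated gene that is not protein-coding. One reached the bin chr8:91790001-91800000, which held exons 2 to 4 of Irx3 and overlapped the noncoding RNA gene Gm36380. This loop ran over 270 kb (FDR 0.0174), and the other reached Irx5 over 830 kb (FDR 0.0075). The joined pair and the outside anchor therefore formed a triangle of 3 loops in each cluster, with corners matched to within 10 kb. Neither triangle was left at an FDR below 0.01 or with corners required to share a bin, where the count was 0. In each triangle 1 side was called at a scale of 2.6, against 2.11 for the other sides. These were the long side on chromosome 13 and the side from the Fto bin to Irx3 on chromosome 8. With the smallest detection scale only, neither triangle therefore keeps all 3 sides. The 1170 kb and 830 kb loops were the longest loops of their windows. Over the whole list, 501 loops (7.37%) were the long side of such a triangle when corners were allowed to differ by 20 kb. This search was added after the data were seen.

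The triangle on chromosome 8 was smaller than that on chromosome 13, and not by the same factor on each side. The side from the outside anchor to the first gene was 55.1% as long on chromosome 8 as on chromosome 13, the side between the paired genes 82.1%, and the long side 70.9%. FDR values were lower on chromosome 13 for both short sides, and lower on chromosome 8 for the long side. These are single calls, and the difference between clusters was not tested.

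The loops at Irx1 and Irx3 outside the triangles had higher FDR values than the joining loops. Irx1 was touched by a 700 kb loop from chr13:71240001-71250000 to chr13:71940001-71950000, at an FDR of 0.0971, and by a 190 kb loop from chr13:71980001-71990000 to chr13:72170001-72180000, at an FDR of 0.0406. The latter ended inside the interval between Irx1 and Irx2. Irx3 likewise had a 230 kb loop into the interval between Irx3 and Irx5, from chr8:91810001-91820000 to chr8:92040001-92050000, at an FDR of 0.0906. The first and last of these stood close to the threshold of the list, in which 98.9% and 97.1% of loops had a lower FDR. A loop of 1130 kb from chr13:71430001-71440000 to chr13:72560001-72570000, at an FDR of 0.0988, ran parallel to the long side of the chromosome 13 triangle and stopped 58.8 kb short of the Irx2 start site.

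Irx4 and Irx6 were covered rather than touched. The loop over Irx4 was 240 kb long, from chr13:73150001-73160000 to chr13:73390001-73400000, with an FDR of 0.0246. Both of its anchors were intergenic, and it also arched over the start of Ndufs6, which encodes a subunit of respiratory complex I and is the nearest gene to the right of the cluster at 50.2 kb. The loop over Irx6 was 350 kb long, from chr8:92370001-92380000 to chr8:92720001-92730000, with an FDR of 0.0103. Its left anchor held exon 5 of the longest Irx5 transcript, 12.4 kb from the Irx5 start site, and its right anchor was intergenic. The Irx6 loop therefore linked the Irx5 gene to sequence beyond Irx6, while the Irx4 loop had no Irx gene at either end. If an anchor was allowed to lie within 50 kb of a start site, the Irx6 loop counted as joining Irx5 and Irx6, and 2 loops joined genes of the chromosome 8 cluster.

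Start sites lay strictly between the anchors of a loop for 4 of the 6 genes, compared with 35.3% of protein-coding genes. This count of genes was added after the data were seen. Irx1 was spanned by 3 loops, and Irx3, Irx4 and Irx6 by 1 each, while Irx2 and Irx5 were spanned by 0. With calls within 100 kb at both anchors merged, 3 of the 4 loops spanning a start site of the chromosome 13 cluster were left. At an FDR below 0.01, 2 of the 6 genes were spanned, Irx1 and Irx3, compared with 20.4% of protein-coding genes. No loop of the list passed over the start of Irx2 or Irx5.

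The intervals between genes differed in how many loops crossed them. At the midpoint between start sites, 3 loops crossed between Irx1 and Irx2 and 2 between Irx3 and Irx5, with at least 2 loops over every 10 kb bin of both intervals. At an FDR below 0.01 these midpoints were crossed by 1 and 2 loops, and with calls within 100 kb at both anchors merged by 2 and 2. Between Irx2 and Irx4 the midpoint was crossed by 0 loops, and 53 of the 63 bins were crossed by none. The 520 kb from chr13:72630001 to chr13:73150000 lay under no loop and held no anchor. Between Irx5 and Irx6 the midpoint was crossed by 1 loop, and only 2 of 31 bins were crossed by none. In the genome, 48.7% of 10 kb bins were crossed by at least 1 loop. The clusters thus differed in the interval before their last gene, which held a long stretch without loops on chromosome 13 and lay under the loop from Irx5 on chromosome 8. This rests on 1 loop, and at an FDR below 0.01 the midpoint between Irx5 and Irx6 was crossed by 0 loops, as that between Irx2 and Irx4. This difference was not tested against the variation between replicates.

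**Figure D2:**
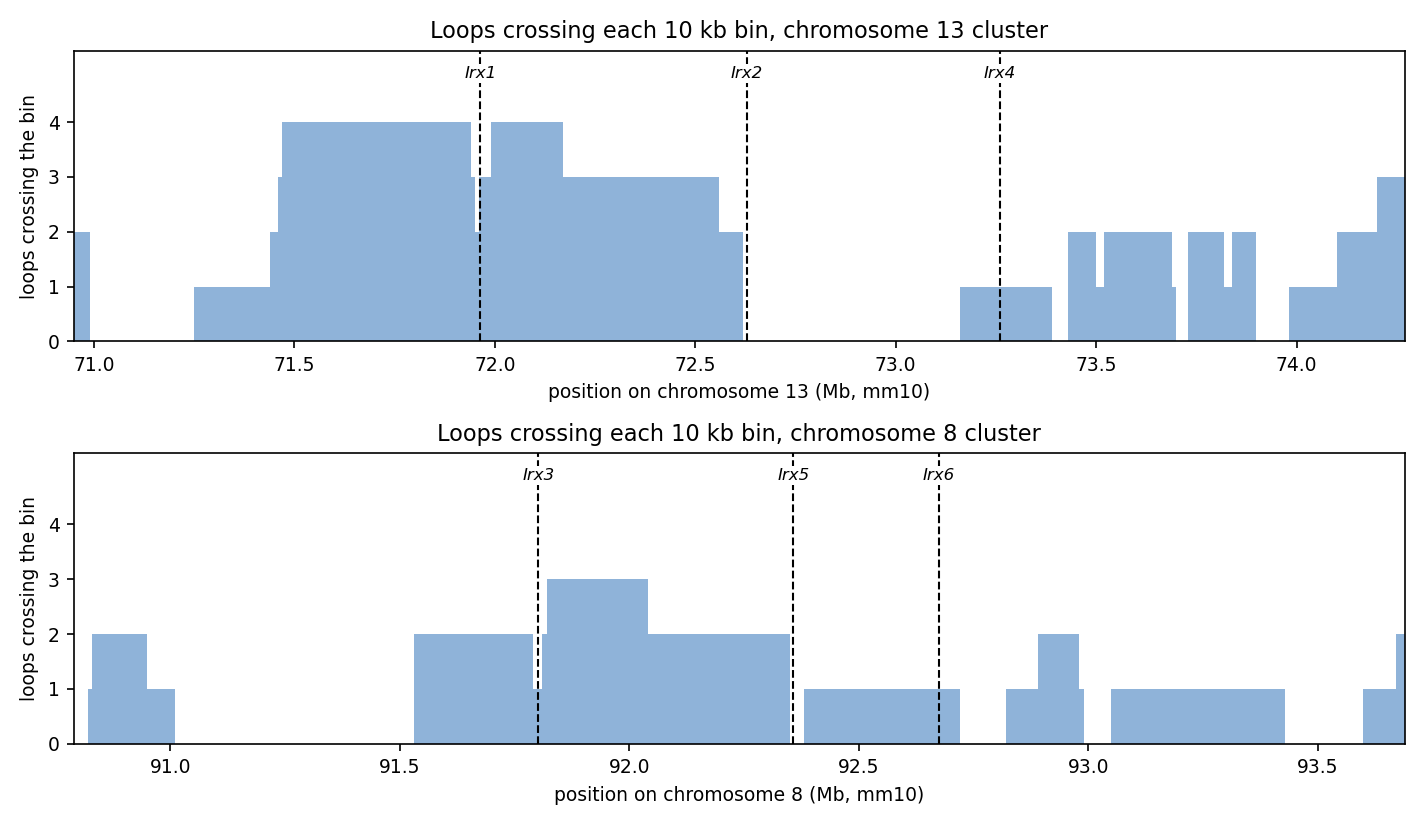
Number of loops of the list crossing each 10 kb bin (anchors not counted) along the windows of both clusters, over the position in Mb of mm10; dashed lines are Irx start sites. The bins between Irx1 and Irx2 and between Irx3 and Irx5 are crossed by 2 to 4 and 2 to 3 loops, and 53 of 63 bins between Irx2 and Irx4 by 0.

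The wider windows held 18 loops with an anchor within 1 Mb of the chromosome 13 cluster and 12 near the chromosome 8 cluster. Of these, 7 and 5 touched, joined or spanned an Irx start site. Anchors were denser than in the genome, at 9.36 per Mb around the chromosome 13 cluster and 7.63 per Mb around the chromosome 8 cluster, against 5.16 per Mb of chromosomes 1 to 19 and X. Counted around each start site, Irx1 and Irx5 had 8 loops with an anchor within 1 Mb, Irx3 had 7, Irx2 and Irx6 had 10 and Irx4 had 13, and the median over protein-coding genes was 7. The number around Irx4 exceeded that of 91.2% of genes although no loop touched Irx4 itself. Most of the remaining loops lay to the right of the clusters, 9 of 11 on chromosome 13 and 5 of 7 on chromosome 8.

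The nearest protein-coding genes on each side of the clusters lay at different distances. Adamts16, which encodes a secreted metalloprotease, was the nearest gene to the left of Irx1, at 1116 kb, and was touched by 2 loops. Fto was the nearest to the left of Irx3, at 130 kb, and its own start site was touched by 0 loops although its exon 8 bin was an anchor. Mmp2, the gene of a matrix metalloprotease, was the nearest to the right of Irx6, at 146 kb, and was touched by 1 loop. Ndufs6 was touched by 0.

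By FDR, 1 loop touching an Irx start site was among the 3 lowest of each window, and most others lay above the window median. On chromosome 13 the lowest values belonged to a 180 kb loop from chr13:73720001-73730000 to chr13:73900001-73910000 (7.11e-05), the loop from the outside anchor to Irx1 (0.000125) and a 360 kb loop from chr13:70630001-70640000 to chr13:70990001-71000000 (0.000167). On chromosome 8 they belonged to a 130 kb loop with both anchors in the Chd9 gene (0.000406), a 180 kb loop from chr8:92810001-92820000 to chr8:92990001-93000000 (0.000906) and the loop that joined Irx3 and Irx5 (0.00151). The median FDR was 0.0169 in the chromosome 13 window and 0.00945 in the chromosome 8 window, compared with 0.0113 in the list. Of the loops that touched, joined or spanned an Irx start site, 5 of 7 on chromosome 13 and 3 of 5 on chromosome 8 had an FDR above the median of their window. The median length was 220 kb and 265 kb, compared with 280 kb in the list. Both joining loops and both long sides of the triangles were longer than the medians of their windows.

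The 12 loops that touched, joined or spanned an Irx start site used 20 anchor bins, of which 4 served 2 loops each. These were the Irx1, Irx2 and Irx5 bins of the joining loops and the Fto bin. In the list, 13.4% of anchor bins served at least 2 loops. GC content was 50.8% in the Irx1 bin, 51% in the Irx2 bin, 54.8% in the Irx3 bin and 50.3% in the Irx5 bin. It was lower in the outside anchors, at 44.8% and 44.1% in the adjacent bins on chromosome 13 and 46.1% in the Fto bin.

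The anchor bins were searched on both strands for the core consensus of CTCF, the zinc-finger protein often found at loop anchors, with at most 1 mismatch to its 14 positions. Of the 20 bins, 8 held a match and 0 held an exact one. A match was present in 48.4% of all anchor bins of the list and in 21.4% of all 10 kb bins of the genome, and an exact match in 13.6% and 2.46%. Of the triangle corners, the Irx1 and Irx3 bins of the joining loops, the bin at chr8:91790001-91800000, the Fto bin and the bin at chr13:71450001-71460000, where the long side began, held no match at this setting, which says only that these letters were not found there. By best match, 3 of the matched bins on chromosome 13 were reverse and 2 forward, and all 3 on chromosome 8 were forward. The matches in the triangle corners that had one, and in the right anchor of the Irx6 loop, are shown as examples of both strands. The other bin of the outside anchor on chromosome 13, that of the loop to Irx1, had its match at chr13:71463680-71463693 on the minus strand, in intergenic sequence. The Irx2 bin had its match at chr13:72627453-72627466 on the minus strand, in an exon of Gm20554 and 1.37 kb upstream of the Irx2 start. The Irx5 bin had its match at chr8:92359260-92359273 on the plus strand, in an intron of Irx5 and 1.64 kb downstream of its start. The right anchor of the Irx6 loop had its match at chr8:92724586-92724599 on the plus strand, in intergenic sequence. Each is printed from the GRCm38.p6 assembly, 5′ to 3′ on the strand of the match, with the 14 matched bases in capitals and 8 bases on each side; all had 1 mismatch.
Outside anchor bin of the loop to Irx1: acctagccCTAGCAGGTGGCAGtgaatcac
Irx2 bin: ctctgaagCTAGTAGAGGGCGGcagagttc
Irx5 bin: gaggtcccCCAGCAGATGGTGGcctccaag
Right anchor of the Irx6 loop: gaagcttgCCAGCTGAGGGCAGtttctcac

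Orientation could be read for a loop where each anchor had a best match on 1 strand. Of the 30 loops in both windows this held for 6, of which 3 were convergent (forward on the left, reverse on the right) and 3 tandem. In the list, 68.3% of the 1502 loops with a readable orientation were convergent. None of the 3 convergent loops touched or spanned an Irx start site. Among the 12 loops that did, orientation could be read for 1, the 700 kb loop to Irx1, which was tandem. The right ends of the joining loops faced opposite ways, with a reverse match in the Irx2 bin and a forward match in the Irx5 bin, and their left ends had no match.

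The Irx2 promoter lay inside the anchor bin shared by the joining loop and the long side of the chromosome 13 triangle. Promoter sequences from the RefSeq table on GRCm38.p6 were matched for Irx2, Irx3 and Irx4, and not for Irx1, Irx5 and Irx6. The 129 bases of the Irx2 promoter that lie before every annotated exon of Irx2, at chr13:72628570-72628698 on the plus strand, are shown for their base composition. They held 8 CG dinucleotides (the letters CG, which read the same on both strands), in capitals below, and were 71.3% G or C. Over the same stretch of 32851 promoters the median was 2, 81% held at least 1, and 79.8% held fewer than Irx2.
Irx2 promoter: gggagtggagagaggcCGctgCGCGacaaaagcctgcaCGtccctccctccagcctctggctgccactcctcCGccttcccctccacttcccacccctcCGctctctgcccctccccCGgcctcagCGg

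Other TALE homeobox genes served as the related list: Meis, Pbx, Pknox and Tgif genes, which encode partners of Hox proteins and related repressors, and Mkx, a regulator of tendon development. Of the 11 genes compared, 6 were touched by a loop and 7 were spanned, compared with 27.2% and 35.3% of protein-coding genes. The touched genes were Meis1 and Meis2 with 3 loops each, Pbx3 and Tgif1 with 2, and Pknox2 and Mkx with 1. Having at least 3 loops was thus found for 2 of 11 TALE genes outside the family and for 3 of 6 Irx genes. Among protein-coding genes the share was 1.94%. At an FDR below 0.01 this held for 0 of either list (0.368% of protein-coding genes), and with anchors within 10 kb for 1 gene of each (0.892%). Meis1 and Meis2 were also those of the 11 with no other start site within 300 kb. The lowest FDR of a loop touching these genes was 0.000662, at Meis2, compared with 0.000125 at Irx1.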

How the data were processed

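Loops were read from the authors' deposited calls on 4 merged Micro-C replicates. The authors aligned reads to mm10 with BWA-MEM, removed duplicates with pairtools, built matrices with juicer_tools and ran Mustache at 10 kb. The q-value (FDR) of each loop is the authors' value, and the deposited score is the scale at which Mustache detected it. The list holds no read counts, so the depth behind a loop is unknown. The replicates did not weigh alike in the merged data, since the paper lists more read pairs for replicate 4 than for any other. ATAC-seq and CUT&RUN samples were not analysed here.

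Bins were compared with GENCODE vM21 on GRCm38.p6 in Python 3.11.15 with numpy 2.4.6, and functions were tested on simulated data. Loop length is the distance between bin starts. No tests were run, since the loop list gives no value per replicate and values per replicate were not used here; counts stand beside those of all genes, bins or loops. Named genes are the 6 Irx genes, genes at the anchors of their loops, flanking genes, TALE genes (1 gene of the planned list is not reported here), and genes at the 3 lowest-FDR loops of each window. Members and lists were chosen with earlier results of these data known. Triangles of loops, the comparison by spacing of start sites and promoter composition were added after the data were seen. So were the counts of genes touched by 2 or more or by 3 or more loops, and of genes spanned by a loop.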

Additional observations from a re-analysis of the deposited data

How the results depend on the processing

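No paired analysis was possible because all values come from 1 list called on merged replicates, and no replicate was left out, since that list is not split by replicate. The count of touched Irx genes was 3 to 5 under the alternatives run, against 4 as reported. At an FDR below 0.01, loops near the clusters fell to 7 (chromosome 13) and 6 (chromosome 8), touching loops to 2 in each cluster, spanning loops to 1 in each, crossings between Irx1 and Irx2 to 1 and between Irx5 and Irx6 to 0, and triangles to 0, while both joining loops passed. With the smallest detection scale only, 3 loops touched the chromosome 13 genes, as with anchors within 10 kb. With the start site inside the anchor bin, 2 loops touched genes of each cluster and the joining loops were 0 on chromosome 13 and 1 on chromosome 8; within 50 kb there were 2 on chromosome 8. The lowest number of loops over any bin between Irx5 and Irx6 was 0. The share of protein-coding genes touched was 23% at an FDR below 0.05, 15.1% below 0.01, 21.9% at the smallest scale, 24.7% with calls within 100 kb merged, 7.1% with the start site inside the bin, 17.7% within 10 kb, 47% within 50 kb and 34.3% with any transcript start. Convergent loops near the clusters numbered 0 with exact matches and 5 with 2 mismatches allowed. With corners in the same bin, an alternative chosen after seeing the data, triangles numbered 0. In alternatives also chosen after seeing the data, Irx genes touched by 3 or more loops numbered 0 at an FDR below 0.01 (0.368% of protein-coding genes) and 1 with anchors within 10 kb (0.892%), and at an FDR below 0.01 Irx genes touched by 2 or more loops numbered 2 (2.22%) and spanned Irx genes 2 (20.4%). The cause of these changes was not tested.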
